A study of Mus musculus with 4 samples.

Results

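Schwann cell precursors and melanoblasts are neural crest derivatives that enter the limb bud from outside it, the first along growing nerves and the second through the skin or from the nerves. Their expression was followed in sorted mouse hindlimb bud cells through 8 marker genes, Sox10, Foxd3, Erbb3, Fabp7, Ngfr, Mitf, Dct and Kit. The genes were taken by symbol, and all 8 were found among the 25239 gene symbols of the count table. RNA was sequenced from FVB embryos at embryonic day 11.5, labelled wild-type and carrying a reporter at the H11 locus in which mCherry is driven by the hsp68 promoter and a human ZRS carrying the base change 404G>A. The ZRS is the distant enhancer through which Shh is expressed in the limb. Anterior hindlimb cells positive for mCherry (2 libraries) were compared with central hindlimb cells negative for mCherry (2 libraries), and both populations carried the reporter. Position and reporter gate differ together between the populations and cannot be told apart. The labels do not say whether libraries came from separate embryos, so p-values measure only the spread between these libraries.

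SOX10 is the transcription factor that specifies and maintains both glial and pigment lineages of the neural crest. In glial precursors it acts with the neuregulin receptor ERBB3, through which axonal neuregulin 1 supports survival and migration. In melanoblasts it acts upstream of MITF, the master regulator of pigment cells, which in turn controls Dct and other melanin synthesis genes, while the receptor KIT supports survival and dispersal through the skin. Several of these genes are not restricted to the neural crest: Kit is also expressed in blood progenitors and mast cells, Mitf in macrophages and mast cells, and Ngfr in some mesenchyme. This list is not complete, and which cells expressed Erbb3 or the other genes here was not tested.

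Library totals ranged from 30080925 to 33257383 counts. A count of 3 or fewer was treated as a floor, which corresponded to 0.0899 to 0.102 CPM (counts per 1 M counts of the TMM-scaled library). Of the values from 1 to 10, 72.8% to 75.6% were even, as happens when each mate of a pair adds a count, so small counts may stand for fewer fragments than their size implies. The limb mesenchyme markers fixed for the label check included Prrx1, Tbx4 and Pitx1. They summed to 3104 and 3025 CPM in anterior replicates 1 and 2, against 3086 and 2957 in central replicates 1 and 2. In bulk RNA, fewer cells of a type and less RNA per cell cannot be told apart.

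The windows before the transcription start are shown because the regulators of these lineages act through short DNA motifs. RefSeq windows (GRCm38.p6) were held for 6 of the 8 genes, and the 250 bases before the start were searched on both strands for the SOX core motifs ACAAAG and ACAATG and for the E-boxes CATGTG and CACGTG, to which MITF can bind. No match overlapped another. Sox10 and Erbb3 were not in the RefSeq table. Matches are in capitals, and each window is written 5′ to 3′ on the strand of its gene. Dct, the candidate MITF and SOX10 target of the set, is shown with Foxd3, the only other gene with a match, and with Ngfr, the gene of the set that rose in anterior cells. Their positions are chr14:118052247-118052496 (minus strand) for Dct, chr4:99656049-99656298 (plus strand) for Foxd3 and chr11:95587699-95587948 (minus strand) for Ngfr.
Dct: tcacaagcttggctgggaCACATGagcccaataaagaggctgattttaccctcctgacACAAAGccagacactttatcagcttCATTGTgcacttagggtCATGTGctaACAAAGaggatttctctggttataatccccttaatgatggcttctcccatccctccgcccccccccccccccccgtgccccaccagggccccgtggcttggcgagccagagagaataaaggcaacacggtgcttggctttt
Foxd3: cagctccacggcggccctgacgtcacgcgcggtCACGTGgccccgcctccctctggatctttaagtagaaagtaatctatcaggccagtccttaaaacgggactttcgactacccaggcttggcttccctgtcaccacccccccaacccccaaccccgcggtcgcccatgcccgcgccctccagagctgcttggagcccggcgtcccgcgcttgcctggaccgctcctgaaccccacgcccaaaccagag
Ngfr: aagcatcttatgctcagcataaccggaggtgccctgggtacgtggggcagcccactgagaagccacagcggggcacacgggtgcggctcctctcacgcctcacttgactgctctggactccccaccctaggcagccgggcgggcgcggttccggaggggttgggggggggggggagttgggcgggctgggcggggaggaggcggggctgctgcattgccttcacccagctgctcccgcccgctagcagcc

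The Dct window held 5 matches, whose first bases lay 232 to 141 bases before the start. They were 2 copies of ACAAAG, 1 of ACAATG read on the opposite strand (printed as CATTGT), and CATGTG once on each strand (the opposite one printed as CACATG). Over all 32851 RefSeq windows of the same length, ACAAAG was present in 16.5%, ACAATG in 10.7% and CATGTG in 12.3%. Windows with 3 or more SOX core matches, a number set by the Dct window itself, made up 0.493%. Foxd3 held 1 copy of CACGTG, which was present in 6.02% of all windows. The windows of Ngfr, Kit, Fabp7 and the 3 alternative starts of Mitf held none of the 4 motifs. A match is a run of letters and does not show binding.

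Of the 8 genes, 6 had enough counts to be tested. Ngfr rose in anterior cells, Sox10 and Erbb3 fell, and Mitf, Dct and Kit did not pass the test. Thus 3 of 6 were called by edgeR's quasi-likelihood test at an adjusted p-value under 0.05, where 22.9% of all 14610 tested genes were called. Genes called higher in anterior cells made up 10.7% of all tested genes and genes called lower 12.3%. Values of the populations did not overlap for 4 of the 6 tested genes, against 63.5% of all tested genes. The median log2 fold change (anterior minus central) was 0.17 over the 6 and -0.01 over all tested genes. Foxd3 was too low to be tested and Fabp7 was listed at 0 in every library. The called genes of the set did not all move in 1 direction.

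**Figure D1:**
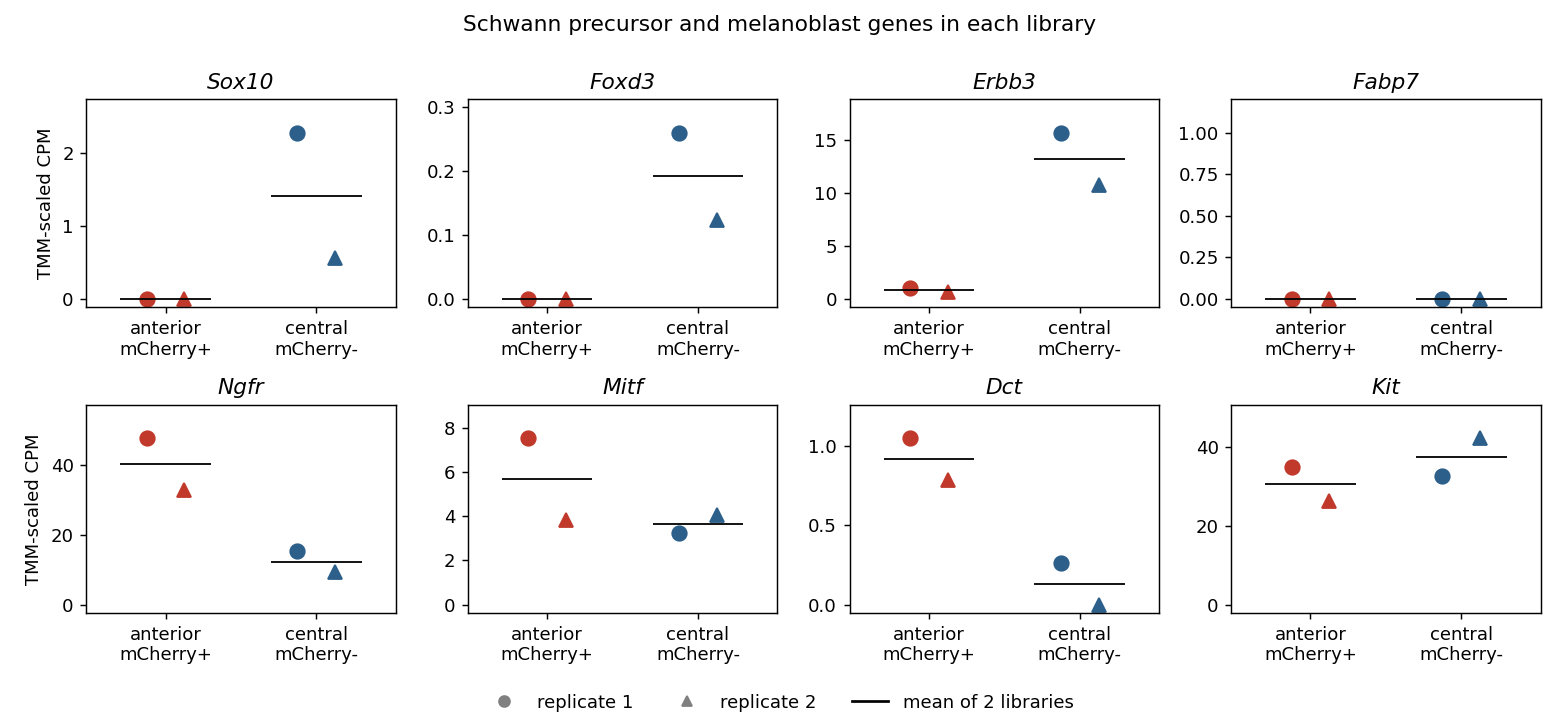
Level of each of the 8 genes in each library, in TMM-scaled CPM on a linear axis starting near 0 whose range differs between panels. Circles are replicate 1, triangles replicate 2, and lines the mean of 2 libraries; Sox10 and Foxd3 lie at 0 in both anterior libraries, Ngfr is higher in both anterior libraries, and Mitf and Kit overlap.

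Sox10 (GRCm38 chr15:79154908-79165240, minus strand) had 0 counts in each anterior library, against 70 and 18 counts in central replicates 1 and 2. It was thus detected in both central libraries and in neither anterior one. The central libraries were unequal, with a level 4.09 times higher in central replicate 1 than in replicate 2. The means were 0 CPM in anterior and 1.41 ± 1.21 CPM in central cells (SD, n = 2 libraries each). Set against a floor of 3 counts in each anterior library, Sox10 was at least 14.7-fold lower in anterior cells. The bound was 5.79-fold without central replicate 1, which carries most of the counts, and 23.7-fold without central replicate 2. The edgeR adjusted p-value was 0.00703, and it was 0.0335 when central replicate 1 was left out. That fit assumes that the lone central library varies like the anterior ones. Sox10 fell below the count filter, and was not tested, with halved counts or with a minimum mean count of 50.

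Foxd3 (chr4:99656299-99658622, plus strand), a forkhead repressor of early neural crest and glial precursors that is switched off in melanoblasts, had the same pattern at a lower level. Each anterior library had 0 counts, against 8 and 4 in the central pair. The exact Poisson 95% intervals of these central counts were 3.45 to 15.8 and 1.09 to 10.2, for counting error only. The second spans the floor of 3 counts. Both intervals treat each count as a separate fragment and would be too narrow if both mates of a pair were counted. Against the floor, Foxd3 was at least 1.99-fold lower in anterior cells, a bound that became 1.29-fold without central replicate 1 and 2.703-fold without central replicate 2. Without the filter on low counts, Foxd3 had an edgeR adjusted p-value of 0.167 and was not called.

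Erbb3 (chr10:128567523-128589652, minus strand) was detected in every library, at 36 and 20 counts in anterior and 482 and 346 counts in central cells. Both central libraries were well above both anterior ones. The levels were 0.881 ± 0.281 CPM in anterior and 13.2 ± 3.51 CPM in central cells (SD, n = 2), 15.0-fold lower in anterior cells. This was a log2 difference of -3.88 ± 0.31 (SE; edgeR adjusted p-value 5.85e-05). It was called in all 13 alternatives that were run, at log2 fold changes from -4.26 to -3.58.

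Fabp7 (chr10:57784881-57788450, plus strand), a brain-type fatty acid binding protein of glial precursors and radial glia, had 0 counts in all 4 libraries. The floor of 3 counts used for a count of 0 corresponded to 0.0899 to 0.102 CPM. The exact two-sided Poisson 95% interval of a count of 0 reached 3.69 counts. Both are for counting error only, and the Poisson limit would be higher if both mates of a pair were counted. Fabp7 was thus not detected in central cells either, where Sox10 and Erbb3 were detected. Of the 9 fatty acid binding protein genes listed, 7 were at the floor in every library. Fabp5, the epidermal-type paralog, was the abundant member and rose in anterior cells, at 136 ± 10.96 against 97.3 ± 0.201 CPM (SD, n = 2; edgeR adjusted p-value 0.00238).

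Ngfr (chr11:95568818-95587735, minus strand), encoding the low-affinity neurotrophin receptor p75, a surface marker of migrating neural crest and glial precursors, went the other way. It had 1592 and 968 counts in anterior and 477 and 299 in central cells. Each anterior library was above each central one, and replicate 1 was the higher library in both populations. The means were 40.4 ± 10.4 and 12.4 ± 4.42 CPM (SD, n = 2), 3.26-fold higher in anterior cells, a log2 difference of 1.71 ± 0.24 (SE; edgeR adjusted p-value 0.00143). The call held in all 13 alternatives, at log2 fold changes from 1.39 to 2.13.

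Among the pigment cell genes of the set, Mitf (chr6:97807052-98021349, plus strand) had 251 and 113 counts in anterior and 100 and 131 in central cells. The populations overlapped, since anterior replicate 2 lay between the central libraries in CPM (3.85 against 3.25 and 4.05). The log2 fold change was 0.64, with a 95% interval of -0.13 to 1.42 and an edgeR adjusted p-value of 0.217. Leaving out anterior replicate 2 moved it to 1.05 with an adjusted p-value of 0.0396, and leaving out anterior replicate 1 moved it to 0.08. The counts are per gene, so the melanocyte-specific and other starts of Mitf were not separated.

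Dct (chr14:118012790-118052244, minus strand), encoding dopachrome tautomerase, an early melanoblast enzyme of melanin synthesis, was low throughout. It had 35 and 23 counts in anterior and 8 and 0 in central cells. Both anterior libraries were above both central ones, with means of 0.917 ± 0.188 and 0.130 ± 0.184 CPM (SD, n = 2). The log2 difference, 2.81 ± 0.97 (SE), did not pass the test (edgeR adjusted p-value 0.0713). With halved counts (edgeR adjusted p-value 0.0415), without a filter (0.0369), with limma-voom (0.0420), with the replicate number as a block (0.0394) and without central replicate 1 (0.00799) it was called, and over all alternatives its adjusted p-value ranged from 0.00799 to 0.208. The higher Dct counts were in the anterior libraries, where Sox10 had 0 counts, and a link between Dct and Sox10 was not tested.

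Kit (chr5:75574916-75656722, plus strand) had 1161 and 768 counts in anterior and 1007 and 1365 in central cells. The values overlapped, at 30.5 ± 6.10 and 37.4 ± 6.70 CPM (SD, n = 2). The log2 fold change of -0.29 had a 95% interval of -0.66 to 0.07 and an edgeR adjusted p-value of 0.229. It was called lower in anterior cells without anterior replicate 1 (log2 difference -0.51; adjusted p-value 0.0427 by edgeR) and without central replicate 1 (-0.46, 0.0277), whereas leaving out either of the other libraries brought it to -0.10.

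**Figure D2:**
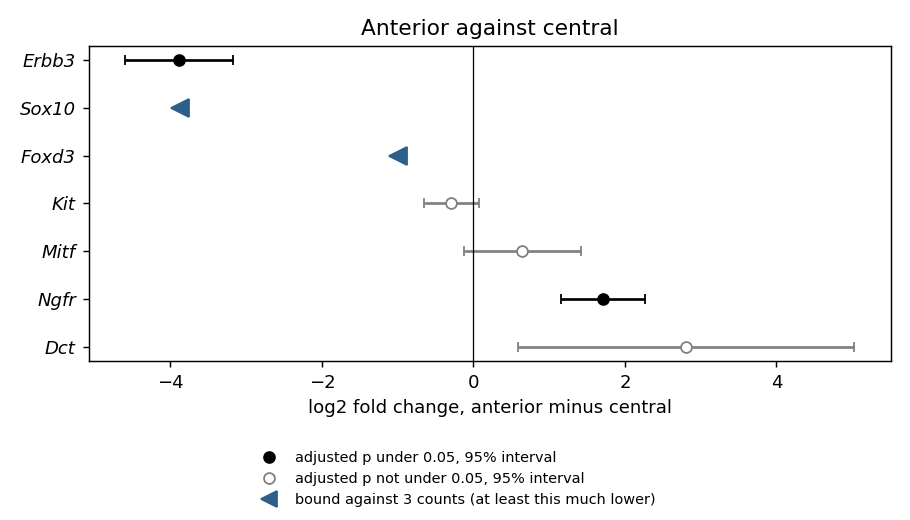
Log2 fold change of anterior against central for the 7 genes with counts, on a linear axis. Points are fitted values with 95% intervals, filled where the adjusted p-value was under 0.05, and triangles are bounds against 3 counts; Erbb3 lies at -3.88, Ngfr at 1.71, and the bounds of Sox10 and Foxd3 at -3.88 and -0.996.

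Levels were compared between genes per kb of annotated exon (GENCODE M21). In anterior cells the order was Ngfr (11.7 ± 3.02 CPM per kb, SD, n = 2), Kit (3.42 ± 0.685), Mitf (0.918 ± 0.419), Dct (0.156 ± 0.0318) and Erbb3 (0.146 ± 0.0467). Dct and Erbb3 overlapped and the other neighbours did not. In central cells the order was Kit (4.20 ± 0.752), Ngfr (3.59 ± 1.28), Erbb3 (2.19 ± 0.583), Mitf (0.589 ± 0.0913), Sox10 (0.464 ± 0.398), Foxd3 (0.0825 ± 0.0414) and Dct (0.0220 ± 0.0312). Kit overlapped with Ngfr there, and Mitf with Sox10. The ratio of Ngfr to Erbb3 per kb was 77.2 and 84.5 in the anterior pair, against 1.73 and 1.51 in the central pair.

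Other Schwann cell precursor and glial genes were mostly low. Apart from genes of the set, 9 of 14 were tested, and 1 was called higher in anterior cells and 3 lower. Over all tested genes, 10.7% were called higher and 12.3% lower. The median log2 fold change of these glial genes was -0.70. The myelin-associated genes Pmp22, Mbp and Cnp, which are also expressed outside glia, fell by 2.02, 1.52 and 0.86 on the log2 scale (adjusted p-values by edgeR of 0.00410, 0.0271 and 0.00638). The call of Mbp was lost without anterior replicate 1 (0.113) and without central replicate 2 (0.0935). L1cam, an adhesion molecule of axons and glia, rose from 0.687 ± 0.360 to 7.43 ± 1.98 CPM (SD, n = 2; edgeR adjusted p-value 0.000539). The glial cadherin Cdh19 had 0 and 2 counts in anterior against 12 and 2 in central cells. The library that stood out was central replicate 1, as for Sox10.

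Of the pigment cell list, 0 genes were called by edgeR: 7 of 14 were tested, Dct, Mitf and Kit included. Over all tested genes, 22.9% were called in either direction. At an unadjusted p-value under 0.05 edgeR gave 1 gene (Dct), the DESeq2 Wald test called 0 and limma-voom called 1 (Dct). Tyr and Tyrp1, the tyrosinase family members that act with Dct in melanin synthesis, were at 0 in every library, as were Oca2 and Gpr143. Mlana had 2 counts in central replicate 1 and 0 elsewhere. Pmel, encoding the melanosome matrix protein, had 12 and 8 counts in anterior and 20 and 24 in central cells, opposite in order to Dct (not called, adjusted p-value 0.224 by edgeR). Of the 11 pigment genes outside the set, 5 were at the floor in every library.

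Genes of migratory neural crest were divided. Of the 13 outside the set, all were tested, and 5 were called higher and 6 lower in anterior cells. Over all tested genes, 10.7% were called higher and 12.3% lower. The median log2 fold change of the 13 was 0.14. Tfap2b and Tfap2a, AP-2 factors that the limb mesenchyme or ectoderm also expresses, rose by 1.77 and 1.67 on the log2 scale (adjusted p-values by edgeR of 9.16e-06 and 4.40e-05). Pax3, which acts with Sox10 on Mitf in pigment cells and also marks muscle precursors, fell from 18.7 ± 2.97 to 0.316 ± 0.0616 CPM (SD, n = 2; edgeR adjusted p-value 3.40e-06). The SoxE paralogs fell together with Sox10, so that 3 of 3, Sox10 included, were lower. Sox9, the cartilage regulator, measured 132 ± 28.9 against 320 ± 15.0 CPM (edgeR adjusted p-value 0.000190) and Sox8 measured 4.997 ± 1.67 against 12.1 ± 2.29 (0.00870). Per kb, Sox10 made up 0.876% and 0.233% of SoxE expression in the central libraries. The FoxD paralogs shared the anterior floor as well: Foxd1 had 0 and 0 against 34 and 36 counts (at least 11.5-fold lower, edgeR adjusted p-value 0.00267) and Foxd2 had 2 and 0 against 133 and 206 (0.000117).

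Of the MITF family, regulators of lysosome and differentiation genes, 3 of 4 were tested. With all 4 libraries, edgeR, DESeq2 and limma-voom called 0, with 0 at an unadjusted p-value under 0.05 by edgeR. Over all tested genes, edgeR called 22.9%. The 0 did not hold in every fit that left 1 library out. Tfe3 was at 40.5 ± 2.94 and 40.3 ± 4.69 CPM (SD, n = 2; edgeR adjusted p-value 0.975). Tfeb differed by 0.65 on the log2 scale (adjusted p-value 0.257 by edgeR). Tfec had 4 and 4 counts in anterior and 0 and 0 in central cells.

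The ligands and partners of the receptors in the set were examined next, from lists of each pathway. The share to set beside each list count is that over all tested genes, 10.7% called higher and 12.3% lower in anterior cells. In the neuregulin pathway, 11 of 14 genes were tested, and edgeR called 0 higher and 3 lower in anterior cells (Erbb3, Egfr and Nrg1). At an unadjusted p-value under 0.05, 1 gene was higher, and the DESeq2 Wald test and limma-voom called 0 higher. Nrg1, the ligand, had 5 and 10 counts in anterior and 40 and 32 in central cells (log2 difference -2.22 ± 0.63 SE; edgeR adjusted p-value 0.0356). The call of Nrg1 was lost with the DESeq2 Wald test (0.0540) and when any 1 library was left out (0.0605 to 0.193). Erbb2, the co-receptor that ERBB3 requires for signalling, was at 77.5 ± 0.982 and 78.3 ± 5.85 CPM (edgeR adjusted p-value 0.923). Erbb4 was at 0.290 ± 0.0714 and 0.302 ± 0.0778 CPM (edgeR adjusted p-value 0.962). Per kb, Erbb3 made up 1.17% and 0.758% of the expression of the 4 ErbB receptors in anterior replicates 1 and 2, against 13.8% and 10.8% in central replicates 1 and 2. Erbb2 exceeded Erbb3 per kb by 83.7 and 130 times in anterior and by 6.08 and 8.01 times in central cells.

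In the KIT pathway, which signals through adaptors and PI3-kinase, 1 of 13 tested genes was called higher (Shc1) and 2 lower (Gab2 and Pik3r1). Over all tested genes, 22.9% were called in either direction, a share close to that of this list. Shc1 was not called with library size alone, with upper-quartile factors or without either anterior replicate or central replicate 1, and Pik3r1 without anterior replicate 1 or central replicate 2. Kitl, the ligand, measured 5.89 ± 0.910 and 7.35 ± 2.01 CPM (SD, n = 2; edgeR adjusted p-value 0.422). The ratio of Kit to Kitl per kb was 3.53 and 3.31 in anterior cells against 2.47 and 4.72 in central cells, so the populations overlapped. Among the related receptor kinases, Csf1r rose and Pdgfra fell, while Pdgfrb was not called. Flt3 had 4 and 0 counts against 20 and 20 and was called lower by edgeR (adjusted p-value 0.0438) but not by the DESeq2 Wald test (0.0721). The edgeR call of Flt3 was also lost without anterior replicate 2 (adjusted p-value 0.217), central replicate 1 (0.127) or central replicate 2 (0.105), and Flt3 was filtered out with halved counts or a minimum mean count of 50. Endothelin 3 supports melanoblasts through the receptor encoded by Ednrb, and 5 of 8 endothelin genes were tested, with 1 called higher (Kel, a red cell surface protein) and 2 lower. Edn3 fell from 24.8 ± 1.28 in central to 8.91 ± 0.410 CPM in anterior cells (edgeR adjusted p-value 0.000107). Ednrb had 28 and 40 counts in anterior and 12 and 12 in central cells and did not pass (adjusted p-value 0.0905 by edgeR). Ednra, the receptor of mesenchymal cells, fell by 1.44 on the log2 scale (adjusted p-value 3.38e-05 by edgeR).

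Of the neurotrophin genes other than Ngfr, 11 of 13 were tested, and edgeR called 7 lower and 0 higher in anterior cells, whereas Ngfr rose. At an unadjusted p-value under 0.05, 1 of them was higher, and the DESeq2 Wald test and limma-voom called 0 higher. Ntf3, a ligand for sensory axons, measured 6.42 ± 0.424 against 17.8 ± 0.692 CPM (SD, n = 2; edgeR adjusted p-value 0.000290), and Bdnf measured 6.53 ± 1.61 against 11.2 ± 1.15 (0.0339). Ntf5 and the sortilin-family receptor gene Sorcs2 fell by 2.24 and 1.95 on the log2 scale. The calls of Bdnf and Ntf5 were lost without anterior replicate 1 (edgeR adjusted p-values 0.159 and 0.0894) and without central replicate 2 (0.0700 and 0.0988). Of the Trk receptor genes, whose products pair with p75, Ntrk3 had at most 4 counts in any library, and Ntrk2 fell from 4.44 ± 0.604 to 1.21 ± 0.0197 CPM (edgeR adjusted p-value 0.00374).

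**Figure D3:**
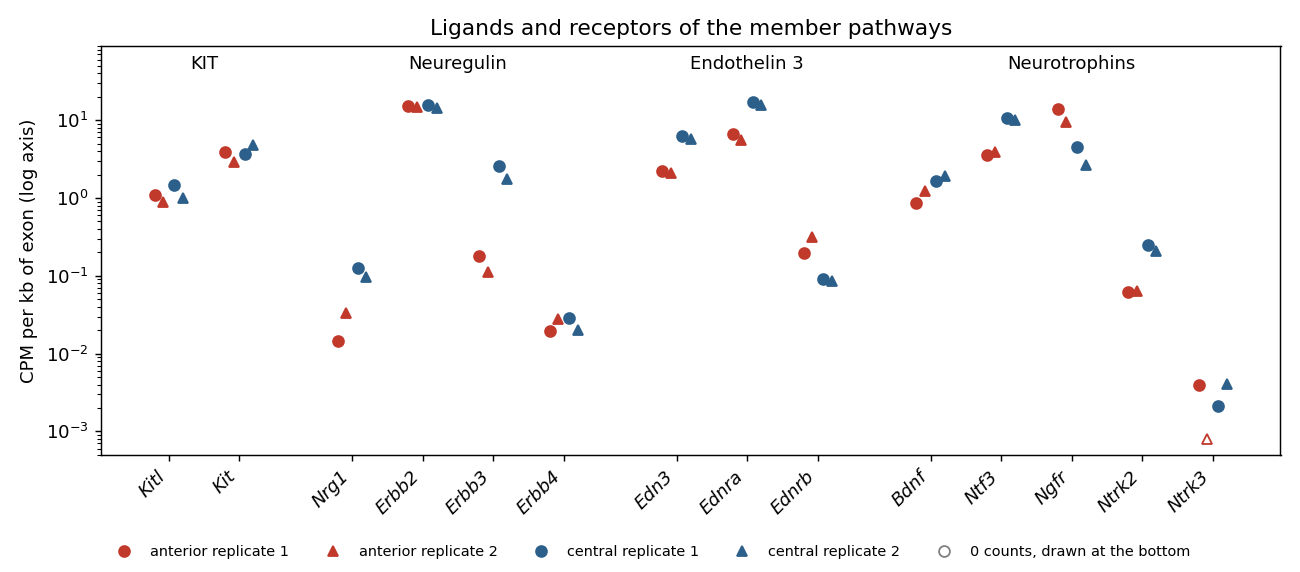
Ligands and receptors of the KIT, neuregulin, endothelin 3 and neurotrophin pathways in CPM per kb of exon on a log axis, 1 point per library, with 0 counts drawn as open symbols at the bottom. Erbb3 and Nrg1 are lower in both anterior libraries while Erbb2 overlaps, and Ngfr is higher in both anterior libraries while Ntf3 and Edn3 are lower.

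Markers of other cell types moved between the same populations, where 10.7% of all tested genes were called higher and 12.3% lower in anterior cells. Muscle precursor markers were called lower in anterior cells in 7 of 7 genes, with summed levels of 4.17 and 2.35 CPM in anterior and 143 and 142 CPM in central libraries, and surface ectoderm markers in 9 of 11 (10.3 and 11.01 against 50.2 and 157 CPM), but in 4 of 11 with limma-voom. Endothelial markers were called lower in 6 of 10 (12.9 and 15.3 against 40.1 and 47.6 CPM). Erythroid markers were called higher in 9 of 9 tested genes (3302 and 8412 against 8.86 and 12.3 CPM), with Hba-a1 at 0 throughout, and macrophage markers in 7 of 10 (34.9 and 32.4 against 9.55 and 9.24 CPM). Limb mesenchyme markers were called higher in 3 and lower in 2 of 10. Neuron markers were called lower in 3 of 10 tested genes (Isl1, Nefl and Dcx), but in 1 when anterior replicate 1 or central replicate 2 was left out. By edgeR 0 neuron markers were called higher (1, Stmn2, at an unadjusted p-value under 0.05, 1 by the DESeq2 Wald test, 0 by limma-voom). Of the 10 tested neuron markers, 5 had a log2 fold change above 0. Stmn2 had 219 and 82 counts in anterior against 72 and 26 in central cells (edgeR adjusted p-value 0.0705). Tubb3 was not called (edgeR adjusted p-value 0.380), and Prph and Neurog1 were at 0. Among mast cell markers outside the set, Mcpt4, Cma1, Tpsb2 and Fcer1a were at 0 in every library. Cpa3 had 0 and 0 counts in anterior cells against 12 and 22 in central cells (at least 5.56-fold lower, edgeR adjusted p-value 0.0132). The part of these cells in the differences of Sox10, Erbb3, Ngfr, Mitf, Dct and Kit was not tested.

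The central libraries differed from each other in these markers. Of the genes with over 3 counts in both, all 11 ectoderm markers were lower in central replicate 1 than in replicate 2, with a median log2 ratio of -1.68. Sox10, Foxd3, Ngfr and Erbb3 were higher in central replicate 1, by 4.09, 2.10, 1.68 and 1.46 times. Mitf and Kit were lower there, at ratios of 0.802 and 0.775. Muscle precursor markers had a median log2 ratio of 0.01, with 4 of 7 higher in replicate 1. Of the glial genes plotted, 8 of 10 were higher in replicate 1, and of the endothelial markers 1 of 10. What set these differences was not tested. The median absolute log2 difference between the central libraries over all tested genes was 0.15.

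**Figure D4:**
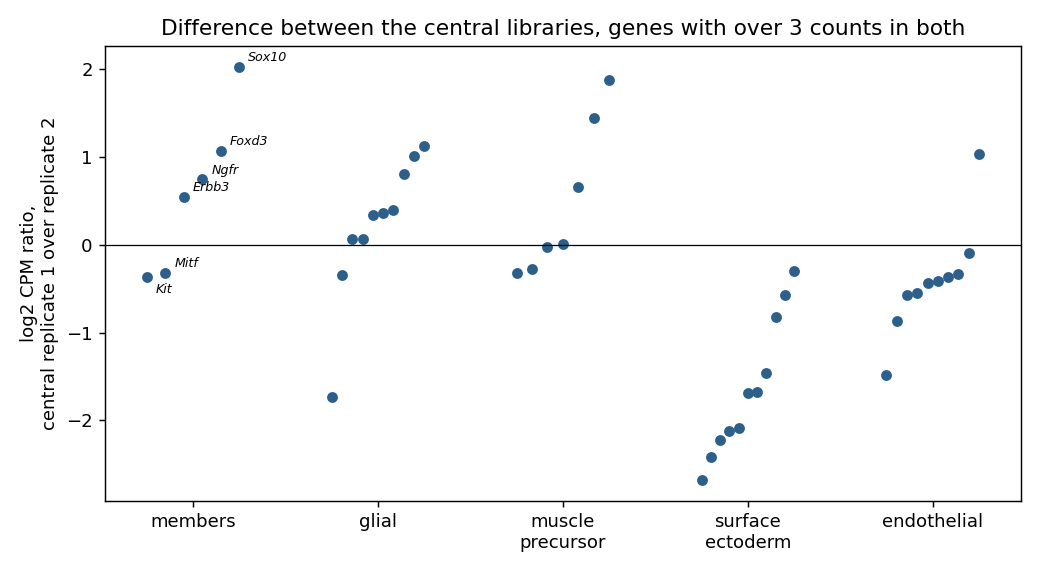
Log2 ratio of CPM between central replicate 1 and central replicate 2, 1 point per gene with over 3 counts in both, by gene list (linear axis, points spread sideways by rank). All 11 ectoderm markers lie below 0, and Sox10, Foxd3, Ngfr and Erbb3 lie above 0.

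The tested genes with a mean of at least 1 CPM whose centred log2 CPM lay closest to that of Sox10 over the 4 libraries were Tnnt1, Pamr1, Smoc2, Gsc and Col8a1, at Euclidean distances of 0.82 to 0.98. A prior count of 2, added before taking logs, sets the Sox10 value in the anterior libraries, so the distances depend on it. Tnnt1, a troponin gene of slow muscle, had 19 and 18 counts in anterior and 368 and 157 in central cells. Pamr1 had 2 and 0 against 154 and 41. All 5 were higher in central replicate 1 than in replicate 2, as Sox10 was, and with 4 libraries many genes can share such a profile.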

How the data were processed

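Total RNA from sorted cells was paired-end sequenced, per the labels, to about 25M reads per sample. The authors deposited whole-number read counts per gene symbol, not normalized. STAR 2.7.9a, HTSeq and build mm10 are named in the submitters' processing notes. The annotation and strand setting are not given in the sources used here, so reads from overlapping genes could not be separated. In GENCODE M21 (the same build) no member shared exon bases with another gene of the table.

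The statistics used R 4.3.3 with edgeR 4.0.16: filterByExpr, TMM, the quasi-likelihood F test over all genes and Benjamini-Hochberg adjustment at 0.05, with 2 residual degrees of freedom. The standard error is the absolute log2 fold change divided by the square root of F. A bound divides the mean CPM by that of 3 counts per library. Alternatives used DESeq2 1.42.0, limma-voom (limma 3.58.1), other scalings, filters, halved counts and left-out libraries. Code was tested on simulated data. The 8 members and the 21 further lists were chosen with earlier results of these data known. Named were the members, fixed ligands, receptors, paralogs and markers, and up to 4 called genes per list with the largest changes; Pmp22, Mbp, Cnp, Dcx, Pdgfrb, Oca2, Gpr143, Hba-a1, the limb and neuron markers and the mast cell genes were named after their values were seen. Some genes that met the naming rule are not reported here.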

Additional observations from a re-analysis of the deposited data

How the results depend on the processing

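Sox10 was called in all 11 alternatives that could test it, and Erbb3 and Ngfr in all 13. The count of genes called among the 8 was 3 (1 higher, 2 lower). It became 2 higher with limma-voom, without a filter, with halved counts and with the replicate block, since Dct was then called. It became 1 lower with a mean count of at least 50 and with halved counts, since Sox10 was then filtered out. Leaving out 1 library gave 3 to 5 called, 1 to 2 higher and 2 to 3 lower; central replicate 1 gave the 5, with Dct and Kit added. Over all genes, leaving out 1 library gave 2009 to 3697 called against 3351, the lowest without anterior replicate 2, and 809 to 1884 called higher against 1559. Such fits assume that the lone library varies like the others.

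Replicate numbers are shared by the groups, but the labels do not say that they pair embryos, and replicate differences in the 2 populations correlated at 0.05 across genes. The replicate block gave 3586 called genes over all, and Dct had an edgeR adjusted p-value of 0.0394. Of 378 counts over the other lists under settings that kept every library, 352 were within 1.5 times the reported count. A count of 0 that stayed at 0 was scored as within that range, and several lists had 0 genes called in a direction. The 352 therefore does not measure how stable the calls were. Counting precision was low for Fabp7 (0 counts), Foxd3 (0 to 8 counts) and Dct in central cells (8 and 0 counts).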
